A study of Mus musculus with 4 samples.

Results

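The ING genes, Ing1 to Ing5, encode a family of 5 chromatin readers, and the lists deposited for DNMT3B in 4T1 lung metastases name 2 of them. Members were found by gene name in both lists, among 21900 protein-coding genes in all. A list of narrow regions, made with the peak caller MACS, named Ing1 for 6 of its 1705 distinct regions and named none of Ing2, Ing3, Ing4 and Ing5. A list of broad regions, here called islands and made with the caller SICER, paired Ing1 with 2 and Ing5 with 4 of its 8242 islands, and paired none with Ing2, Ing3 or Ing4. The name of the island list marks it as a top selection, so a gene without an island lacks one in that selection only. The family was chosen by these counts and positions, which are therefore given as a description and without a test.

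Each ING protein carries a plant homeodomain (PHD) finger, a zinc-binding fold that recognises histone H3 trimethylated on lysine 4, a mark of active gene starts. The family brings histone-modifying complexes to that mark. ING1 and ING2 belong to the SIN3 deacetylase complex, ING3 to the NuA4 (TIP60) acetyltransferase complex, ING4 to the HBO1 acetyltransferase complex, and ING5 to both the HBO1 and the MOZ and MORF acetyltransferase complexes. ING1, the founding member, is known as a tumour suppressor that cooperates with p53. DNMT3B, the enzyme that was immunoprecipitated, places new methyl groups on CG dinucleotides, and its ADD domain binds histone H3 whose lysine 4 is not methylated.

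The series held 2 DNMT3B chromatin immunoprecipitation libraries and 2 input libraries made without an antibody, both kinds with the lung numbers 3 and 5. All 4 came from lung metastases of 4T1, a transplantable mammary tumour line, in mice of the BALB/c strain. The labels give no treatment, age or genetic change, and do not say whether the lungs came from separate mice or how far lung tissue of the host was removed. The lists hold positions for the whole series and no count, score or p-value, so the depth is unknown, no value belongs to a library, no spread between replicates can be given, and the labelled tissue could not be checked against markers.

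To show the gene starts that the calls bear on, the promoter windows of the ING genes are printed from RefSeq (build GRCm38.p6), each from 250 bases before to 50 after an annotated start. Capitals mark CG dinucleotides, the substrate of DNMT3B. The coordinates are those of RefSeq and not of the deposited lists. Ing1 has 5 annotated starts, of which 3 are shown: the first, which a MACS region spans, the fourth, which has the most CG and no region, and the fifth, which a region follows. The other genes are shown by their first start, none of which was covered by a region or island named for the gene.
Ing1 start 1 (chr8:11555512-11555811, plus strand): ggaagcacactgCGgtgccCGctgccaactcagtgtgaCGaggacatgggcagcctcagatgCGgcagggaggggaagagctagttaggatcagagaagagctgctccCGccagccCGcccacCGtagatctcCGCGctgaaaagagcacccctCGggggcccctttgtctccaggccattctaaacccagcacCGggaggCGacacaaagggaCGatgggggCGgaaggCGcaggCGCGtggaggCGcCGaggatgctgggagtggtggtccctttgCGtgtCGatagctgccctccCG
Ing1 start 4 (chr8:11556207-11556506, plus strand): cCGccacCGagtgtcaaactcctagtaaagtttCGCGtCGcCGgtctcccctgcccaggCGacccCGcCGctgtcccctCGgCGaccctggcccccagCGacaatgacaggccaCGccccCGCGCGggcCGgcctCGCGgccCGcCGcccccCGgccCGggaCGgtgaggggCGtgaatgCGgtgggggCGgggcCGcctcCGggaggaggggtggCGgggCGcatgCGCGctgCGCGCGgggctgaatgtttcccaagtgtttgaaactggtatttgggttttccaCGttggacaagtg
Ing1 start 5 (chr8:11558160-11558459, plus strand): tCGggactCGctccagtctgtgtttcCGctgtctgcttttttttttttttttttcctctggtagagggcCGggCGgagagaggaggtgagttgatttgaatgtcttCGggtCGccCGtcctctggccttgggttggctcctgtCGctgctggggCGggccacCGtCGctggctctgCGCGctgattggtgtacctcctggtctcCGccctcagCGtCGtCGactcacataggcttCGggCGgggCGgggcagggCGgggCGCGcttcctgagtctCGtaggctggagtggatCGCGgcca
Ing2 (chr8:47675110-47675409, minus strand): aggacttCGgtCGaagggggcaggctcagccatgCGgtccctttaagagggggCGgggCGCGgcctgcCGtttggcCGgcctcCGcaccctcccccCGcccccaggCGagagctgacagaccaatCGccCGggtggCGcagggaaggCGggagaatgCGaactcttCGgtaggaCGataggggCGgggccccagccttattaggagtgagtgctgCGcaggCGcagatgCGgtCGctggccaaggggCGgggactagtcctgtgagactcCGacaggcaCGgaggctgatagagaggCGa
Ing3 (chr6:21949321-21949620, plus strand): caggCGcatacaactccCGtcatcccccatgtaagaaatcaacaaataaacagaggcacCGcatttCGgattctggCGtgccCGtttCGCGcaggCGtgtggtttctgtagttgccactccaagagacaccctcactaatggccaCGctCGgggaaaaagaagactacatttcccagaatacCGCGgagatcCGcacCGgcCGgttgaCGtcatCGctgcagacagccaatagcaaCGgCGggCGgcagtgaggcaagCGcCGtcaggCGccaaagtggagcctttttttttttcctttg
Ing4 (chr6:125039598-125039897, plus strand): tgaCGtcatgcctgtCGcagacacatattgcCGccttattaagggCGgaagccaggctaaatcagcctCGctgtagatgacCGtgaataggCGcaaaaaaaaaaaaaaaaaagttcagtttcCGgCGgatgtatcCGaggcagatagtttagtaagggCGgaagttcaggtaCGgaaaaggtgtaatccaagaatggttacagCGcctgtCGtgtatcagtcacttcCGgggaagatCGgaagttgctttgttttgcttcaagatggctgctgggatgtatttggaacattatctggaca
Ing5 (chr1:93803715-93804014, plus strand): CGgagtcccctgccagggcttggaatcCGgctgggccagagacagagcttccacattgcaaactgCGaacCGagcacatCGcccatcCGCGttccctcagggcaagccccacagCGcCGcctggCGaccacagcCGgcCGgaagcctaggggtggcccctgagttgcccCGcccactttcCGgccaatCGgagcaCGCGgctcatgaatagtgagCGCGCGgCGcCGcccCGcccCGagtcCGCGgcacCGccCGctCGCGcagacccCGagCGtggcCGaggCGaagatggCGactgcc

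The ING promoters differed widely in CG content, and the gene starts with calls were not the richest. Over 21263 windows of protein-coding genes the median was 13.0 CG, with quartiles of 4.00 and 24.0. The window of Ing1 start 1 held 22 CG, a number that 31.3% of all windows reached. Starts 2 and 3 of Ing1 lie 301 and 303 bp further into the gene, in windows overlapped in part by the MACS region that spans start 1, and held 27 CG (20.7%) and 26 CG (22.6%). The fourth start lies 695 bp from the first and held 37 CG, reached by 7.29% of windows. The fifth lies 2648 bp from the first and held 27 CG (20.7%). Ing5, with no call at its start, held 35 CG (9.12%). Ing2 held 27 CG, Ing3 24 (26.9%) and Ing4, the poorest of the family, 16 (44.8%). All ING windows thus lay above the median of the windows, whether or not a region was called there.

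**Figure D1:**
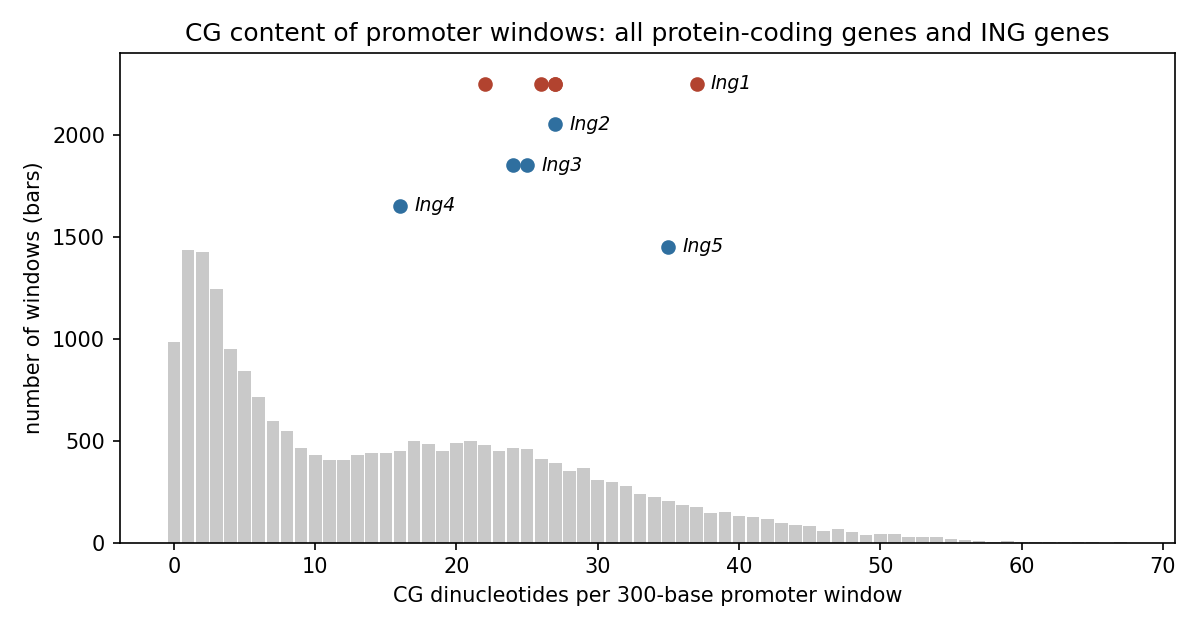
Bars give the number of RefSeq promoter windows of protein-coding genes (vertical axis) by the CG dinucleotides they hold (horizontal axis, per 300 bases), and points give the windows of the ING genes at heights chosen only to separate them, with Ing1 in red. Ing1 has windows between 22 and 37 CG, and Ing5, with no region at its start, has 35.

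Short motifs were searched in the same windows on both strands, with overlapping matches counted. TGACGTCA, the cyclic AMP response element, occurred in the windows of Ing3 and Ing4, once each, and in 2.23% of all windows. GGGCGG, the GC box that SP and KLF factors bind, occurred 6 times in the window of Ing1 start 5, 4 times each in those of Ing2 and Ing5 and 1 or 2 times in the other ING windows, and in 46.2% of all windows. CCAAT, the box bound by NF-Y, occurred 2 times in each window of Ing1 starts 2 and 3, which share nearly all their bases, once in each window of Ing1 start 5, Ing2, Ing3 and Ing5 and not in those of Ing1 starts 1 and 4 or Ing4, and 38.2% of all windows held it. CACGTG, the E-box that MYC binds, occurred in none of the ING windows and in 7.84% of all windows. These matches describe letters only.

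At Ing1, narrow regions lay before, across and well beyond the gene start. Positions in the MACS list are rounded to 100 bp here, and the gene start that its distances imply is 11555762 on chromosome 8, which differs from the RefSeq start of GRCm38 by 0 bp. The first region, from 11555100 to 11555300, ended 462 bp upstream of the start. The second, from 11555500 to 11555900, reached from 262 bp before the start to 138 bp after it. By these rounded edges it enclosed the whole window printed as Ing1 start 1, but the upstream margin is smaller than the rounding step. The second region was the widest of the 6, at 400 bp.

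The other 4 regions of Ing1 lay inside the gene. The third, from 11557500 to 11557800, began 1738 bp after the start and was worded as intronic. The fourth, from 11558500 to 11558600, began 2738 bp after the start, which is 90 bp beyond the fifth annotated start of the gene. This distance is smaller than the rounding step of 100 bp. The wording of the fourth region gave both the body and an intron of Ing1. The fifth, from 11561600 to 11561700, and the sixth, from 11561900 to 11562000, were worded as contained within the gene with no intron named. The sixth ended 1250 bp before the gene end that the SICER list gives.

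The 6 regions of Ing1 thus fell into a pair at the first start, a pair around the fifth start and a pair in the last part of the gene. Gaps within these pairs were 200, 700 and 200 bp, and gaps between them 1600 and 3000 bp. Together the regions spanned 6900 bp and covered 1200 bp of it. The start richest in CG, the fourth, lay between the second and the third region, with the nearer edge 557 bp away.

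Broad enrichment at Ing1 lay on the upstream side. The nearer island, from 11553400 to 11556199, was 2800 bp wide and ran from 2362 bp before the first start to 437 bp after it. It held the first and second regions. It passed the start of the transcript paired with it in the SICER list, NM_011919, by 134 bp, which is 1.86% of that transcript's 7185 bp. It ended before the fourth annotated start. The regions from the third on lay outside islands, 1301 to 5701 bp from the nearest one, so that 2 of the 6 shared bases with an island, against 30.6% of all MACS regions.

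The farther island of Ing1, from 11547000 to 11552799, lay wholly upstream, ending 3266 bp before the paired transcript, and held no region. It covers the start of the neighbouring gene, Cars2, which encodes a mitochondrial cysteinyl-tRNA synthetase and is read in the opposite direction. The Cars2 start in the SICER list, 11550771, lay 3771 bp inside the island and 4991 bp from the first start of Ing1. Each island is paired with a single gene, and this one counts for Ing1 although it does not touch the Ing1 gene.

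**Figure D2:**
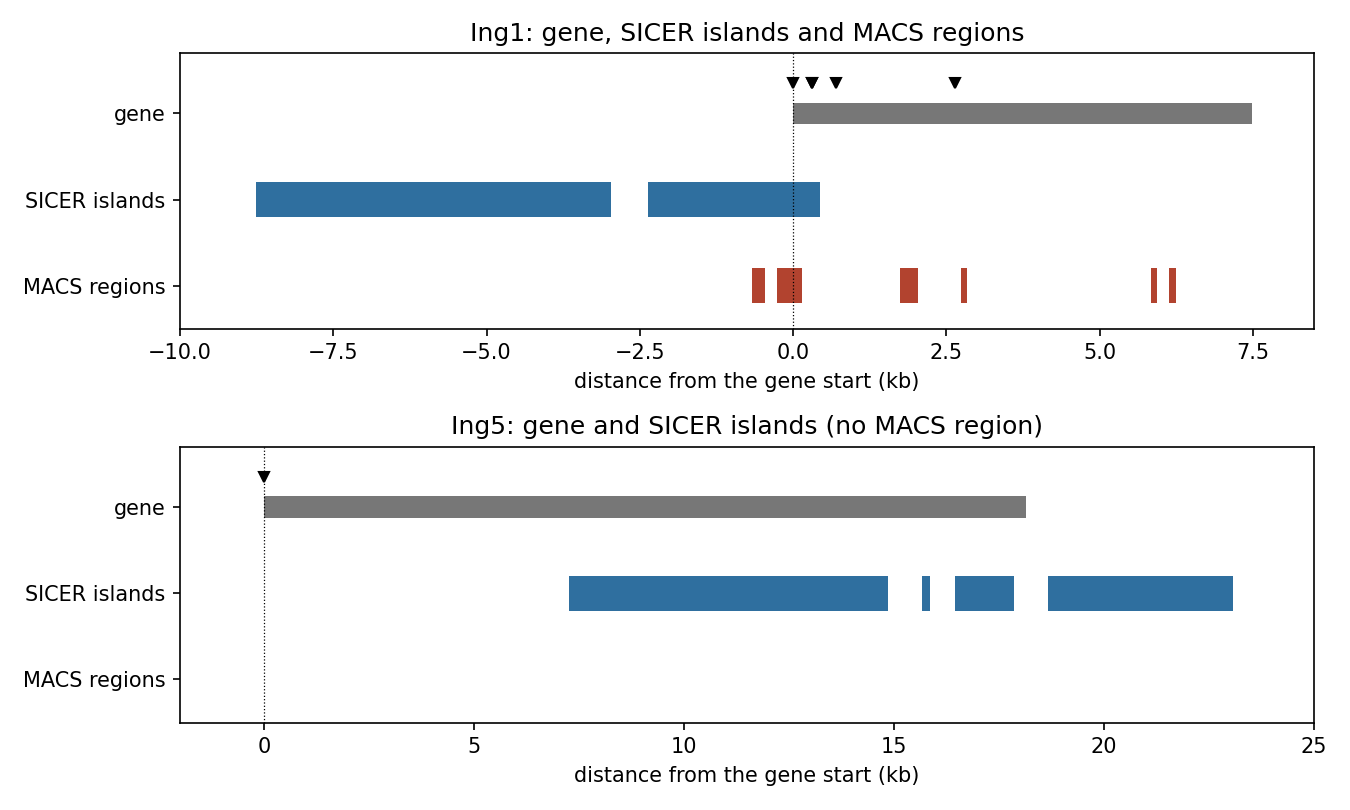
Horizontal positions are distances from the gene start in kb, for Ing1 from the start implied by the MACS list and for Ing5 from the transcript in the SICER list, at different scales in the upper and lower panels. Grey bars are genes, blue bars islands, red bars MACS regions and triangles annotated starts. The islands of Ing1 end 437 bp after its start, and those of Ing5 begin 7259 bp after its start.

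By the gene position in the SICER list, Ing5 showed broad islands in and behind the later part of the gene and none at its start. The deposited gene end differs from GRCm38 by 1.90 Mb. The placement holds only if islands and gene positions follow the same build, which was not tested. The Ing5 gene in the SICER list, NM_025454, spans 18136 bp on chromosome 1 from 95700541 to 95718677. The first island, from 95707800 to 95715399, began 7259 bp after the start, 40.0% of the way along the gene, and was the widest at 7600 bp. The second, from 95716200 to 95716399, and the third, from 95717000 to 95718399, were 200 and 1400 bp wide and also lay inside the gene. The fourth, from 95719200 to 95723599, began 523 bp beyond the gene end and was 4400 bp wide.

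Islands covered 50.7% of the Ing5 body, and 80.3% of the covered bases lay beyond the midpoint of the gene. The median coverage over the 3771 protein-coding genes paired with islands was 16.3%, with quartiles of 2.30 and 45.4%, and 22.5% of these genes reached the coverage of Ing5. Of all islands paired with protein-coding genes, 48.5% lay inside the gene, as do 3 of the 4 at Ing5. A further 15.0% lay wholly downstream, as does the fourth. Islands across the start alone, the class of the nearer Ing1 island, made up 12.3%, and islands wholly upstream, the class of the farther one, 11.7%.

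No narrow region accompanied the Ing5 islands. The nearest MACS region on chromosome 1, by its deposited position, lay 461 kb from the gene and was named for Pask, a PAS domain kinase gene. In the island list, 106 kb separated the nearest preceding island from the Ing5 start, and 208 kb the last Ing5 island from the next. In the RefSeq gene order the next gene downstream of Ing5 is D2hgdh, which encodes D-2-hydroxyglutarate dehydrogenase and was paired with no island. Of the 10 protein-coding genes closest to Ing5 in that order, 4 were paired with islands (Stk25, Bok, Thap4 and Neu4) and none was named by a region. Over all protein-coding genes the shares were 17.2% for an island and 6.14% for a region.

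Among all protein-coding genes, few were named by as many regions as Ing1, and more were paired with as many islands as Ing1 or Ing5. Of 21900 genes, 6.14% were named by at least 1 MACS region, and 0.0228% (5 genes) by at least 6. Among the 1344 genes with a region, 1102 had 1 and 196 had 2. Distinct regions were counted on rounded positions, with a step of 100 bp at Ing1. At genes with a step of 1000 bp, regions as close as those of Ing1 can fall together, so these counts depend on the rounding. In the island list, a top selection by its name, at least 1 island was paired with 17.2% of protein-coding genes. At least 2, as at Ing1, were paired with 8.16%, and at least 4, as at Ing5, with 2.26%. These shares are the background for counts that chose the family, and nothing is read from the difference.

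MACS calls moved with whether a gene's deposited position matches GRCm38, as that of Ing1 does and that of Ing5 does not. Gene positions in the SICER list lay within 1 kb of GRCm38 for 285 of 3771 genes (7.56%). Ing1 is among them, with an end that differs by 1 bp, and so were all 8 of the genes paired with islands among its 10 closest protein-coding genes. The Ing5 end differed by 1.90 Mb. Ing2, Ing3 and Ing4 have no deposited position, and none of the 2 island-paired neighbours of Ing2 or the 7 of Ing4 matched GRCm38. Ing3 had no such neighbour.

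Among island-paired genes with matching positions, 49.5% had a MACS region in the gene or up to 5 kb upstream, against 10.9% of those with other positions. On chromosome 8, which carries both Ing1 and Ing2, the shares were 42.0% of 50 genes and 10.6% of 320. At least 2 regions were found at 16.8% and 1.92% of the island-paired genes, and at least 6 at 0.702% and 0.0574%. The part of these differences in the contrast between Ing1 and its relatives was not tested. Rounding steps, on which counts of distinct regions depend, were not matched between the sets of genes. The submitters' notes name mm10, the same assembly as GRCm38, but most gene positions in the SICER list differ from it. The build of the region and island positions is not settled. If it differs from that of the gene positions, calls may be named for the wrong genes.

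Around Ing1, calls continued on both sides. Within 100 kb of the gene, Cars2 had 2 further islands and Naxd, an NAD(P)HX dehydratase gene given in both lists by its older name Carkd, had 2 regions and 2 islands, the nearest 33.0 kb away. Rab20, a small GTPase gene, had 2 islands in this range and shared 1 region with the transcript E230013L22Rik, 77.2 kb away. On the other side Ankrd10, an ankyrin repeat gene, had 2 regions and 1 island, the nearest 69.3 kb away, and Mir7238 was named for 2 regions there. Among the 10 protein-coding genes closest to Ing1 in RefSeq order, 6 were named by a region and 8 paired with an island, against 6.14% and 17.2% of all protein-coding genes. The 6 are among the 8, whose positions all match GRCm38. Of all island-paired genes with matching positions, 49.5% had a region in the gene or up to 5 kb upstream.

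The neighbourhoods of the 3 ING genes that no call names are read against the same shares, 6.14% of all protein-coding genes for a region and 17.2% for an island. Of the 10 genes closest to Ing2 none had a region and 2 had islands, Cldn22 and Wwc2, and of those closest to Ing3 none had either. Of the 10 closest to Ing4, 2 had a region and 7 had an island. Chd4, the remodeller of the NuRD complex, had both, with a region from 125046000 to 125047000 on chromosome 6. Acrbp, an acrosin-binding protein gene and the next gene after Ing4 in RefSeq order, was paired with an island from 124996200 to 125001399 on chromosome 6, which began 3744 bp before the Acrbp start. Pianp, before Ing4 in that order, was paired with an island from 124949800 to 124955999. The lists give no position for Ing4, and no deposited position of its island-paired neighbours matched GRCm38. Whether the Acrbp island or the Chd4 calls lie in Ing4 was therefore not measured, and Ing4 lacks calls by gene name only. These neighbours were named after their values were seen.

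Partners of the ING proteins were read from lists of their complexes and of the writers and erasers of H3 lysine 4 methylation, 59 genes in all. A MACS region in the gene or up to 5 kb upstream was found at 8 of the 59 (13.6%), against 5.91% of all protein-coding genes, and an island at 14 (23.7%), against 17.2%. The median member had 0 regions and 0 islands, as did the median protein-coding gene. Both calls were found at 4 members, and neither at 41. No list member had more than 2 regions. The 6 of Ing1 were among the counts that chose the family, so nothing is read from the difference.

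In the SIN3 complex, which holds ING1 and ING2, 2 of 16 members had a region and 3 had an island. The shares were 12.5% and 18.8%, against 5.91% and 17.2% of all protein-coding genes. Brms1, a breast cancer metastasis suppressor gene of this complex, had a region from 5041270 to 5041310 on chromosome 19, ending 94 bp upstream of the gene, and a second from 5041420 to 5041480 within it. Both shared bases with an island, although no island is paired with Brms1. Suds3, a subunit gene that supports deacetylase activity, had a region at 117566000 on chromosome 5, rounded to 1000 bp and 2 bp inside the gene start as deposited, and 2 islands that did not cover it. Sin3b, the scaffold of the complex, had 2 islands, the first across its start from 75246600 to 75248799 on chromosome 8. Sap130 had 1 island.

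In the NuA4 complex, which holds ING3, 2 of 16 members had a region and 4 had an island. Kat5, the acetyltransferase TIP60 itself, had a region from 5609910 to 5610300 on chromosome 19, inside an island of its own from 5597800 to 5611599. By the MACS wording the region crossed the gene edge. Its midpoint lay at -398 bp, upstream of the Kat5 start in the SICER list. Epc1, a scaffold of the complex, had a region in an intron, from 6490440 to 6490710 on chromosome 18, outside islands. Trrap, the large cofactor that binds activators, had no region and 9 islands, the most of any list member. Its first island began 9740 bp after the gene start, so that, as at Ing5, no island paired with the gene covered its start. Ruvbl1, an ATPase gene, had 3 islands and Dmap1, which binds the maintenance methyltransferase DNMT1, had 1.

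In the HBO1 and MOZ and MORF complexes, which hold ING4 and ING5, 3 of 10 members had a region and 3 had an island. Each share was 30.0%, against 5.91% and 17.2% of all protein-coding genes. At Kat6b, which encodes the acetyltransferase MORF, the region stood at 22318900 on chromosome 14, and the gene began 91 bp beyond it. Brpf1, a scaffold of these complexes, had a region in an intron, at 113258000 on chromosome 6, rounded to 1000 bp. Jade2, an adaptor of HBO1, had a region from 51670000 to 51670200 on chromosome 11, with its midpoint 883 bp after the start, and 3 islands farther into the gene. All 3 regions lay outside islands. Jade1 had 1 island and Brpf3 had 2.

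Among 17 writers and erasers of H3 lysine 4 methylation, 4 had an island (23.5%, against 17.2% of all protein-coding genes). A region was found at 1 of the 17 (5.88%, against 5.91%). That gene was Men1, which encodes menin, a tumour suppressor and partner of the MLL methyltransferases. Its region, from 6335500 to 6335640 on chromosome 19, had its midpoint 558 bp after the start and lay inside an island from 6333800 to 6340999. Kmt2b and Kmt2d, both MLL-type methyltransferase genes, had 4 and 3 islands and no region, the nearest to the start beginning 9146 bp and 20637 bp after it. Wdr5, a shared subunit of these methyltransferases, had 1. Kat5 and Men1, like Ing1, have deposited positions that match GRCm38, and the other 12 list members paired with islands do not. What part this has in the partners' regions was not tested.

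**Figure D3:**
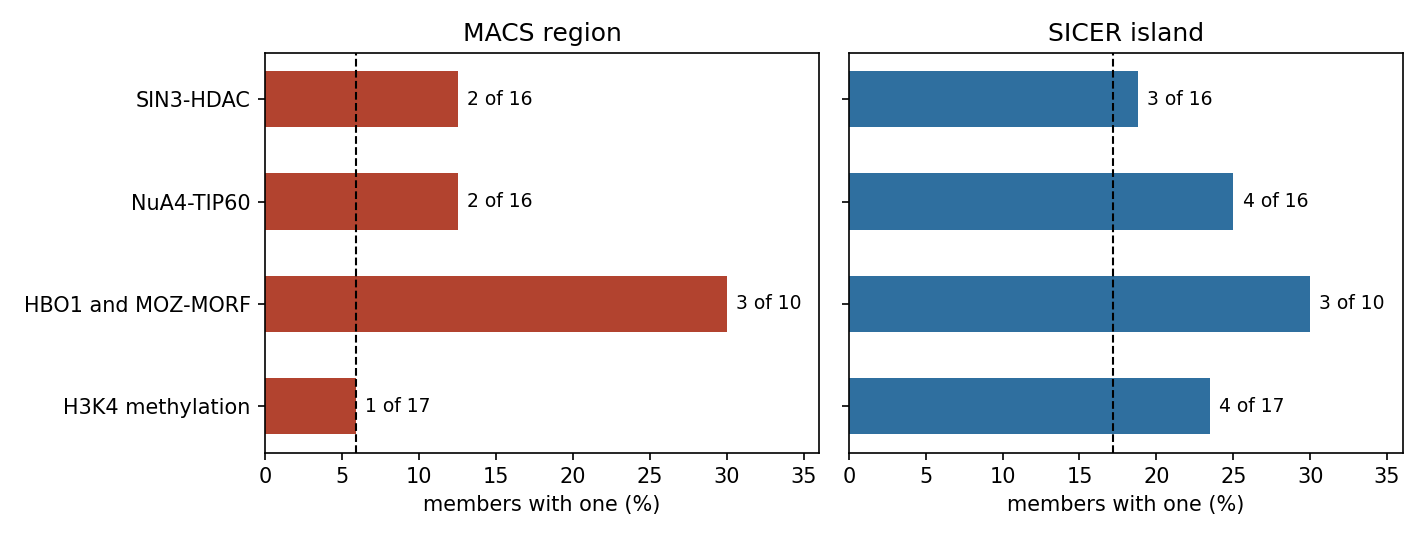
Bars give the percentage of list members with a MACS region in the gene or up to 5 kb upstream (left) and with a paired SICER island (right), with the counts beside them, and dashed lines the share of all protein-coding genes, 5.91% and 17.2%. The HBO1 and MOZ-MORF list has the highest share in both panels, from 3 of 10 members each. With islands required within 2 kb of the gene start, this list has 0 members with an island, the fewest of the 4 lists.

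The genes whose regions were most like those of Ing1 were sought among the 14 other genes named by at least 4 regions, by the absolute log2 ratio of the span from first to last region. The ratio was 0.20 for Bahcc1 and for Foxf1, whose 4 regions each spanned 6000 bp, against 6900 bp at Ing1. Bahcc1 encodes a chromatin protein with a BAH domain, and Foxf1 a forkhead factor of lung mesenchyme. Their positions are rounded to 1000 bp, so these spans are coarse. Fendrr, the noncoding RNA gene next to Foxf1, had 4 regions over 11000 bp (0.67), and Zbtb7a, a zinc finger repressor gene, 4 over 4300 bp (0.68). Plec, the plectin gene, had 9 over 11500 bp (0.74).

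In how far islands held these regions the genes ranged widely. At Ing1 2 of 6 regions shared bases with an island, at Bahcc1 and Foxf1 1 of 4 each, at Fendrr 0 of 4, at Zbtb7a 4 of 4 and at Plec 8 of 9. Bahcc1 was like Ing1 also in that its region in an island was the most upstream one, whereas at Foxf1 it was the most downstream one. Ing1, Bahcc1 and Foxf1 had 1 region each upstream of the gene by the deposited wording, and Fendrr, Zbtb7a and Plec had 0.

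**Figure D4:**
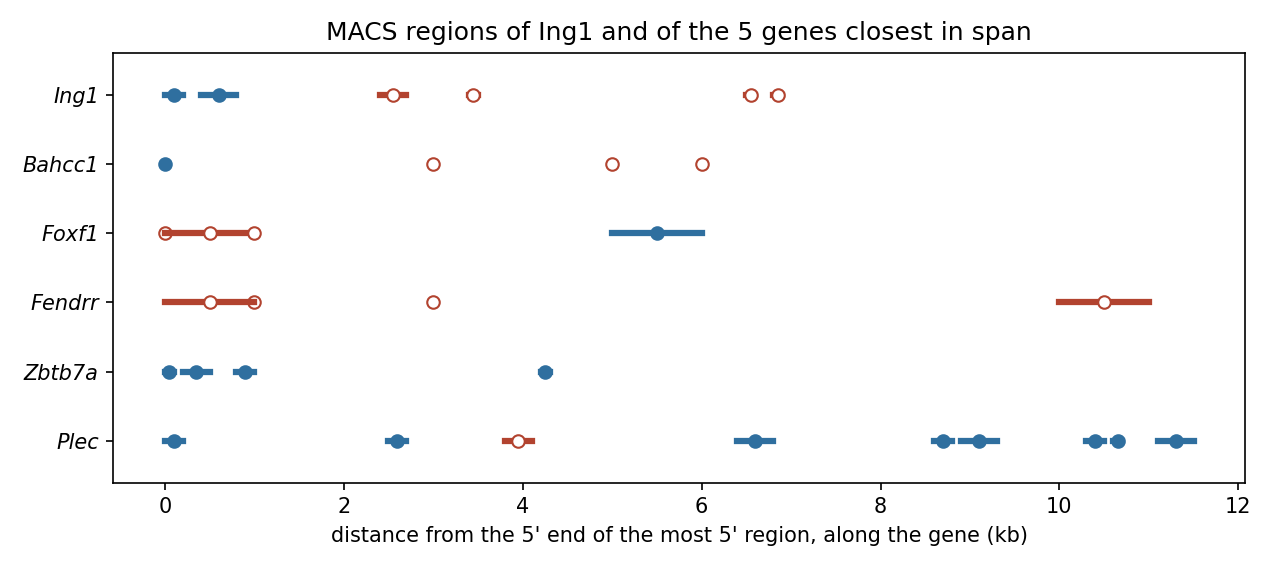
Each row is a gene, and each mark a MACS region drawn as a line from its deposited start to end with a point at its midpoint, by distance in kb along the gene from the most upstream region. Filled blue marks share bases with an island and open red marks do not. At Ing1 the 2 regions at the upstream end are in an island, and at Zbtb7a all 4 are.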

How the data were processed

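DNMT3B ChIP and input libraries of 4T1 lung metastases were processed by the submitters. The submitters' processing notes name Bowtie2 2.10, MACS 1.4, SICER and the build mm10, while the narrow list bears the name MACS2. The name of the broad list marks it as a top selection, without the rule used. Neither the labels nor the lists say whether libraries were pooled, or which transcript models were used. The deposited values are base positions and distances for the whole series, per the file headers.

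The MACS list held 4304 lines and 1705 distinct regions, each counted once. Positions carry at most 6 significant digits, and 2 ends given only as question marks were replaced by their starts. Equal start and end positions were found for 531 regions. The overlap length of all 8242 islands equalled that with the paired gene extended by 10 kb. Gene names were matched to RefSeq (GRCm38.p6) by accession, symbol or unique synonym, for 1703 regions and 8238 islands. Overlap required 1 shared bp. No test was made, since members and lists were chosen with earlier results of these data known. Named genes were all ING genes, list members with a region, up to 5 per list with islands only, neighbours within 100 kb of a deposited ING position, and the 5 genes closest to Ing1 in span. Python 3.11.15, pandas 2.3.3, numpy 2.4.6 and matplotlib 3.10.9 were used, and the functions were tested on simulated data.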

Additional observations from a re-analysis of the deposited data

How the results depend on the processing

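Alternatives numbered 47, and 34 left the value within 1.5 times the count given or within 100 bp of the position given. The 2 regions of Ing1 in islands stayed 2 with midpoints, with regions widened by their rounding step and with islands widened by 1 kb. Merging regions within 500 bp left 4 at Ing1, and counting every deposited line gave 23. Islands required to touch the gene body, or to have their midpoint in it or up to 5 kb upstream, numbered 1 at Ing1 and 3 at Ing5. By its edge nearest to the start in place of its midpoint at 1888 bp, the third region of Ing1 lay at 1738 bp. From the start of the SICER transcript, 303 bp farther on and chosen after seeing the data, the region midpoints lay at -865, -365, 1585, 2485, 5585 and 5885 bp. Islands within 2 kb of a gene start were found at 2 members of NuA4, at 0 of HBO1 and MOZ-MORF and at 1 of H3 lysine 4 methylation, fewer because this asks more of an island. No score accompanies the regions, so no stricter threshold could be tried. No paired analysis was possible because positions are given once for the series, with none for a single library. No library could be left out either.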

Other observations

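The number of deposited lines per region varied along Ing1. The 6 regions stood on 3, 8, 2, 1, 3 and 6 lines in order along the gene, 23 in all, with the most at the region across the first start. Over all 1705 regions the median was 1 line and the maximum 55. The name of the narrow list counts its 4304 lines as peaks, which makes 23 peaks at Ing1. Neither the labels nor the headers say why lines repeat.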
